A study of Ovis aries with 3 samples.

Results

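The insulin-like growth factor (IGF) genes described here were the growth factor *IGF2* (ENSOARG00020007754), its receptors *IGF1R* (ENSOARG00020005176) and *IGF2R* (ENSOARG00020007810), and the binding protein genes *IGFBP2* (ENSOARG00020025420), *IGFBP3* (ENSOARG00020002594), *IGFBP4* (ENSOARG00020007791), *IGFBP5* (ENSOARG00020025439) and *IGFBP7* (ENSOARG00020020541). They were taken by symbol from the gene lists of the single-cell count tables, with no threshold on their values. Earlier results of these data were known when they were chosen. All 8 were found among 26478 listed genes, of which 16670 carry a symbol. In the RefSeq gene order of the sheep assembly ARS-UI_Ramb_v3.0, which is another build than that of the counts, *IGF2* lies beside *INS*, *IGFBP3* beside *IGFBP1*, and *IGFBP2* and *IGFBP5* beside each other.

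IGF2 is a secreted growth factor of the embryo and placenta, and in mammals its gene is imprinted, with expression from the paternal copy in most fetal tissues. IGF1R is the receptor tyrosine kinase that transmits the growth signal. IGF2R, the cation-independent mannose 6-phosphate receptor, takes IGF2 into the cell for breakdown in lysosomes. The IGF binding proteins hold secreted IGFs outside the cell and either withhold them from the receptor or carry them to it, and IGFBP7 is a related protein that binds IGFs weakly.

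The counts come from whole sheep embryos, dissociated with collagenases and freed of part of the red cells with a lysis buffer, and profiled with a droplet method that reads the 3′ end of transcripts. There were 3 libraries. E19 HSTS came from a Hulunbuir short-tailed sheep embryo of day 19, whose parents were homozygous for a missense change in the *T* (Brachyury) gene. E19 HS and E16 HS came from Hu sheep of day 19 and day 16, whose parents were homozygous for the wild-type allele, so breed and *T* genotype cannot be told apart. All embryos came from artificial insemination of ewes after synchronized estrus. Each E19 library held 1 embryo. For E16 HS the study describes 3 embryos and the label names 1, and whether cells were pooled could not be settled.

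Each condition had 1 library, so how much embryos of the same condition vary is unknown here and no p-values were computed. Levels are given as CPM, the unique molecular identifiers (UMIs) of a gene counted per 1000000 UMIs, summed over the cells. Since 3′ UMIs are not scaled by gene length, levels were compared for 1 gene between cells and libraries, and shares of UMIs among the binding protein genes are not shares of molecules. Intervals are exact 95% intervals (Poisson for CPM, Clopper-Pearson for shares of cells, conditional binomial for ratios) and cover counting error only. A gene was called different between libraries or cell groups past a 2-fold ratio, where both sums held at least 50 UMIs together.

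After the filter, 11329 cells of E16 HS, 10629 of E19 HS and 9618 of E19 HSTS were kept, with median depths of 9046, 6900 and 8675 UMIs. The libraries shared 31 to 37 cell barcodes per pair. Clusters were formed without the 8 IGF genes and without 44 further genes of the IGF pathway, and were named by marker genes as resembling a type. Mesenchyme-like, nephric-like, extraembryonic endoderm-like, endothelium-like, neural-like and erythroid-like cells are described in turn. Every marker of a group's own list that is in the tables (10 to 12 genes) had a UMI in that group in every library. Some lists of other types met this too, so it does not set the groups apart. In mesenchyme-like cells of E16 HS, all 11 nephric and all 10 erythroid markers had a UMI. The endoderm group was led by plasma protein genes such as *SERPINA1*, *AHSG* and *FGG*, and whether its cells were extraembryonic or hepatic endoderm was not tested. Its 58, 117 and 113 cells, in the order E16 HS, E19 HS and E19 HSTS, and the 54, 283 and 169 endothelium-like cells, were the smallest groups. Erythroid-like cells made up 17.7%, 13.4% and 27.4% of the kept cells and held 24.5%, 28.8% and 45.6% of the UMIs, so a level over a whole library also depends on its red cells. A level over a whole library does not by itself tell fewer cells of a type from a lower level in each cell.

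*IGF2* had 811 CPM in E16 HS (interval 806 to 817), 572 CPM in E19 HS (567 to 577) and 494 CPM in E19 HSTS (490 to 499). Its UMIs were found in 55.8%, 51.3% and 45.2% of the cells. When each cell was thinned to 3000 UMIs, which left out 1317, 1345 and 1106 shallower cells, the shares were 48.5%, 44.1% and 36.9%. Its level was highest in E16 HS and lowest in E19 HSTS, and the 3 intervals did not overlap.

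**Figure D1:**
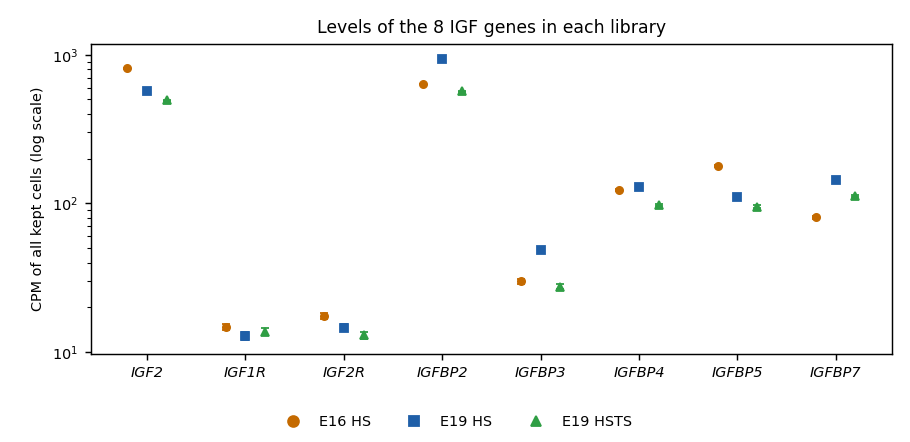
Levels of the 8 IGF genes in the 3 libraries, in CPM on a log axis, over all kept cells. Points are library values and bars are 95% counting intervals. *IGFBP2*, *IGFBP3* and *IGFBP7* are highest in E19 HS, and *IGF2* and *IGFBP5* are highest in E16 HS.

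The cell groups differed far more in *IGF2* than the libraries did. Nephric-like cells, which resemble the embryonic kidney, had *CDH16* and *LHX1* of the 11 nephric markers among their 10 leading genes. Of these markers 6 counted as detected. They summed to 185, 367 and 417 CPM there. In E16 HS the gut endoderm (1057 CPM), neural (734 CPM), mesenchyme (359 CPM) and myeloid (279 CPM) markers summed to more. The extraembryonic endoderm, endothelium and erythroid markers summed to less. *IGF2* was highest in nephric-like cells in every library, with 3279 CPM in E16 HS (3234 to 3324), 2539 CPM in E19 HS (2496 to 2583) and 2615 CPM in E19 HSTS (2572 to 2659). Against all other cells of the same library the ratio was 4.91, 5.61 and 7.01. Nearly every nephric-like cell had an *IGF2* UMI, at 99.4%, 99.1% and 99.4% of cells, and the thinned shares were 97.0%, 97.5% and 96.2%. Mesenchyme-like cells had 1537, 1193 and 1120 CPM, which was 2.80, 2.59 and 2.72 times the level of the other cells. Because they were more numerous, mesenchyme-like cells held 50.4%, 32.0% and 26.3% of a library's *IGF2* UMIs, against 22.2%, 25.4% and 28.6% in nephric-like cells, which were only 4.48%, 5.50% and 5.08% of the cells.

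Extraembryonic endoderm-like cells had 818, 1977 and 2083 CPM of *IGF2*, and endothelium-like cells 648, 1045 and 910 CPM. In both groups the E16 HS value was the lowest and rested on fewer than 60 cells. Neural-like cells had 123 CPM in E16 HS, 84.0 CPM in E19 HS and 180 CPM in E19 HSTS, so that their ratio to the other cells was 0.144, 0.121 and 0.332. Erythroid-like cells were at the bottom in all 3 libraries with 33.8, 33.2 and 35.6 CPM. In each library the *IGF2* intervals of neighboring groups in this order did not overlap.

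The level in erythroid-like cells bears on how far low values can be read. They had *IGF2* UMIs in 12.0%, 9.99% and 8.73% of cells at median depths of 13947, 17567.5 and 17492 UMIs, and in 4.32%, 4.68% and 4.45% after thinning, and the thinned shares of neural-like cells were 17.7%, 15.3% and 19.6%. Relative to mesenchyme-like cells, the erythroid-like *IGF2* level was 2.20%, 2.78% and 3.18%, while that of the collagen gene *COL1A1*, which red cells should lack, was 0.799%, 0.903% and 1.33%. Most erythroid-like *IGF2* UMIs (70.7%, 84.2% and 79.3%) came from a small finer cluster led by *ANK1* and *SNX22* (140, 115 and 199 cells), which was singled out after its values were seen and also had 83.4, 46.3 and 69.5 CPM of the collagen gene *COL1A2*. Without it, erythroid-like *IGF2* was 11.03, 5.80 and 8.07 CPM. The part of free RNA and of doublets in these values was not tested.

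**Figure D2:**
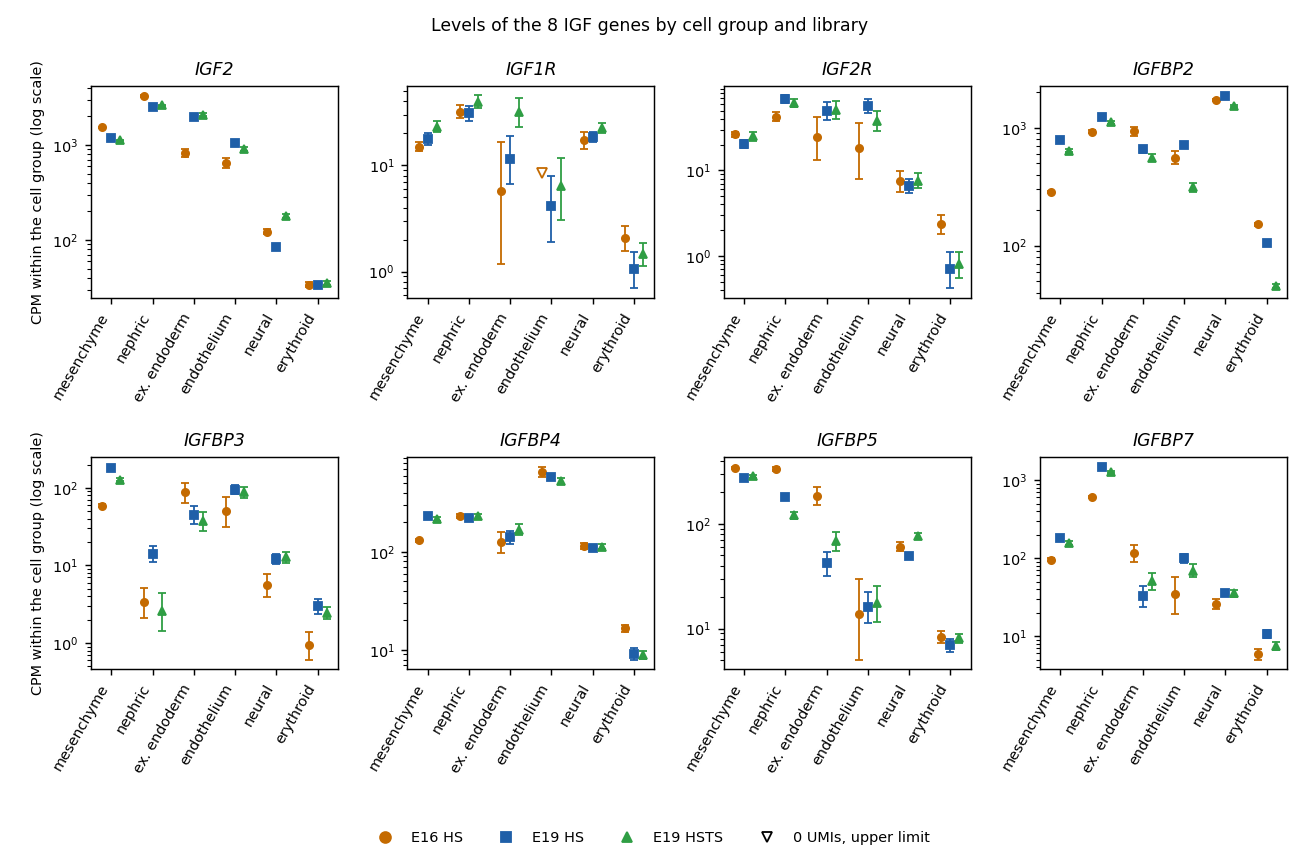
Levels of the 8 IGF genes in 6 cell groups (horizontal) and 3 libraries (colors and symbols), in CPM on a log axis with 95% counting intervals. An open triangle is the upper limit where no UMI was counted, as for *IGF1R* in endothelium-like cells of E16 HS, at 8.48 CPM. *IGF2* and *IGFBP7* peak in nephric-like cells, *IGFBP2* in neural-like cells and *IGFBP4* in endothelium-like cells.

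Within the nephric-like group, *IGF2* was unevenly spread. A finer cluster led by *SLPI*, *C1QA*, *PTPRO* and *PTPRQ* had 7312 CPM in E16 HS (7179 to 7447), 7993 CPM in E19 HS (7755 to 8237) and 12673 CPM in E19 HSTS (12256 to 13099), in 148, 79 and 36 cells, all of them with an *IGF2* UMI. It held 56.3%, 33.02% and 24.9% of the nephric-like *IGF2* UMIs. *PTPRO* encodes a receptor phosphatase of kidney podocytes and was at 330, 621 and 1067 CPM there, against 4.85, 6.55 and 2.75 CPM in the cluster led by *CALB1*, *SLC12A1*, *NRK* and *LHX1*. The *CALB1* cluster, with 350, 432 and 378 cells, had 1956, 1709 and 1744 CPM of *IGF2*. Another finer cluster, led by the tubule transporter gene *SLC34A1*, was seen in both E19 libraries and had 2693 and 3246 CPM of *IGF2* in 74 and 75 cells. The *PTPRO* cluster got no type name. Of its 10 leading genes none is on the nephric list and 1, *C1QA*, is on the myeloid list, of which 2 genes counted as detected, too few for a name. It was chosen for its *IGF2* level. *INS*, the neighbor of *IGF2*, had 65, 19 and 25 UMIs in nephric-like cells, of which 49, 8 and 1 were in the *PTPRO* cluster.

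Mesenchyme-like cells also held *IGF2*-rich and *IGF2*-poor subsets. Cells led by *DCN*, which encodes a collagen-binding proteoglycan, *POSTN* and *GFRA2* had 2410, 2930 and 3265 CPM of *IGF2* in 325, 179 and 148 cells. Cells led by *IGFBP3*, *POSTN* and *TCF21* (below, the *POSTN* and *TCF21* subset) had 1712, 1733 and 1711 CPM in 606, 868 and 533 cells. That was close to level across stage and breed. Cells led by *MEOX2*, *EBF2* and *GAS2* had only 241, 457 and 382 CPM. A subset led by *REG4*, *PMP22* and *ANXA1* was found in E16 HS alone with at least 30 cells, and its 1284 cells had 1590 CPM and held 64.6% of the mesenchyme-like *IGF2* UMIs of that library. A subset led by the muscle genes *MYLPF* and *TNNC2* reached that size in the E19 libraries alone, with 502 and 351 CPM in 343 and 410 cells. In mesenchyme-like cells the mesenchyme markers summed to 9289, 3392 and 3317 CPM. Gut endoderm markers, which include keratins, summed to 7226, 1888 and 1857 CPM, and extraembryonic endoderm markers to 1467, 475 and 374 CPM. Extraembryonic endoderm-like cells of E16 HS had 3905 CPM of the gut endoderm markers. Which mesenchyme-like subsets carried these markers was not tested.

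**Figure D3:**
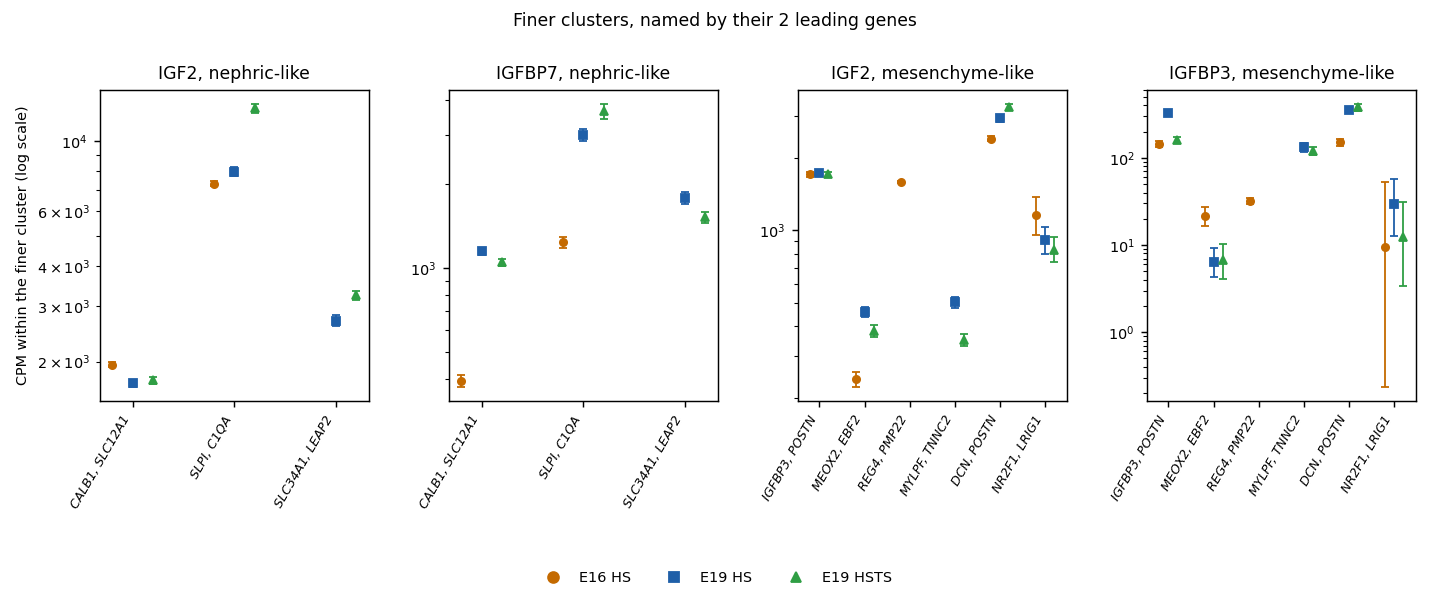
Levels in finer clusters, each named by its 2 leading genes, in CPM on a log axis with 95% counting intervals: *IGF2* and *IGFBP7* in nephric-like cells and *IGF2* and *IGFBP3* in mesenchyme-like cells, for the 3 libraries (colors and symbols). Clusters with at least 30 cells of a library are drawn, and the nephric-like cluster led by *SLPI* and *C1QA*, which also holds *PTPRO*, reaches 7312 to 12673 CPM of *IGF2*.

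For stage, E16 HS was set against E19 HS. *IGF2* was 1.42 times as high in E16 HS (1.40 to 1.43) over all kept cells, where the median ratio of all 12580 genes tested was 1.17 (0.23 on the log2 scale), and relative to that median its ratio was 1.21. It was 1.29 times as high in mesenchyme-like cells (1.27 to 1.31) and 1.29 times as high in nephric-like cells (1.26 to 1.32). In extraembryonic endoderm-like cells the direction was the opposite, with *IGF2* 2.42-fold lower in E16 HS (2.18 to 2.68), although with cells gated on their own markers the ratio was 0.690. With the named groups weighted equally, the ratio over all was 0.923. Without the *PTPRO* cluster, the nephric-like levels were 1918 and 1900 CPM and the ratio was 1.01 (0.980 to 1.04). At the finer resolution the mesenchyme-like ratio was 0.894, and in neural-like cells without collagen UMIs the ratio of 1.46 became 0.968, whereas it was 2.12 with cells gated on their own markers.

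For breed at day 19, E19 HSTS was set against the same E19 HS library, so both comparisons share it. *IGF2* over all kept cells was slightly lower in E19 HSTS, with a ratio of 0.863 (0.853 to 0.874), beside a median of 0.963 over all genes. Leaving out the erythroid-like cells turned the ratio to 1.11. Within groups it was 0.939 in mesenchyme-like cells and 1.03 in nephric-like cells. The *IGF2*-poor *MYLPF* and *TNNC2* subset gave 343 of 2244 mesenchyme-like cells in E19 HS and 410 of 1649 in E19 HSTS. Its part in the mesenchyme-like ratio was not tested. Without the *PTPRO* cluster (79 cells in E19 HS, 36 in E19 HSTS) the nephric-like ratio was 1.09 (1.06 to 1.12). The neural-like cells stood out, with 2326 against 1514 UMIs and a ratio of 2.14 (2.00 to 2.28). The median ratio of all genes in neural-like cells was 0.23 on the log2 scale, and relative to that median *IGF2* was short of 2-fold. Its difference was seen in the finer cluster led by *PAX6* and *SOX2* (233 against 72.6 CPM) and in that led by *SCUBE2* and *MT3* (190 against 78.7 CPM). It was smaller in that led by *NDP* (133 against 84.0 CPM), and not seen in the small one led by *NR2F1* (183 against 401 CPM). The summed level of the 12 mesenchyme markers in neural-like cells was 149 CPM in E19 HSTS, 119 CPM in E19 HS and 232 CPM in E16 HS. In neural-like cells with no UMI of *COL1A1*, *COL1A2* or *COL3A1*, *IGF2* was at 134 and 62.4 CPM, a ratio of 2.15 (1.98 to 2.33). Whether the difference is one of breed or of single embryos cannot be told apart.

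Both receptors were expressed at low levels. *IGF1R* had 14.8 CPM in E16 HS (14.1 to 15.5), 12.9 CPM in E19 HS (12.2 to 13.7) and 13.8 CPM in E19 HSTS (13.0 to 14.5), with UMIs in 12.6%, 9.59% and 12.1% of cells. *IGF2R* had 17.5 CPM (16.7 to 18.3), 14.6 CPM (13.8 to 15.4) and 13.0 CPM (12.3 to 13.7). After thinning, each was found in fewer than 5% of the cells of every library. At this depth, cells that lack the transcript cannot be told apart from cells in which it was missed.

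Nephric-like cells had the highest level of *IGF1R* in each library, with 32.1, 30.9 and 39.8 CPM, which was 2.33, 2.62 and 3.24 times the level of the other cells. Neural-like cells (17.2, 18.6 and 22.6 CPM) and mesenchyme-like cells (15.0, 17.6 and 23.2 CPM) had intervals that overlapped each other. They came next in E16 HS and E19 HS, while in E19 HSTS extraembryonic endoderm-like cells stood between, at 31.8 CPM, with an interval overlapping that of nephric-like cells. Endothelium-like cells were low, with 0 UMIs in 54 cells of E16 HS, which allows up to 8.48 CPM, and with 4.15 CPM in E19 HS and 6.45 CPM in E19 HSTS. In extraembryonic endoderm-like cells *IGF1R* was 2.74 times as high in E19 HSTS as in E19 HS (1.52 to 5.21), from 44 against 16 UMIs. The stage ratio over all kept cells was 1.15 (1.06 to 1.24), close to the median of all genes, and was 0.992 with TMM scaling.

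*IGF2R* had the same leading group as its ligand. Nephric-like cells had 42.5, 67.7 and 60.8 CPM, a ratio to the other cells of 2.66, 5.97 and 5.93. At day 19, the extraembryonic endoderm-like cells (49.99 and 50.6 CPM) and endothelium-like cells of E19 HS (56.7 CPM) came close, with intervals that overlap their neighbors. Neural-like cells had only 7.56, 6.55 and 7.57 CPM, although their *IGF1R* level was near that of mesenchyme-like cells. Between the stages, *IGF2R* was 3.09-fold lower in E16 HS in endothelium-like cells (1.52 to 7.31, 8 against 123 UMIs) and 2.03-fold lower in extraembryonic endoderm-like cells (1.11 to 4.00, 13 against 69 UMIs), the latter with a ratio of 0.575, short of 2-fold, when cells were gated on their own markers. The median ratio of all genes in extraembryonic endoderm-like cells was -0.26 on the log2 scale. Relative to that median *IGF2R* was also short of 2-fold. In erythroid-like cells it was 3.33 times as high in E16 HS (1.95 to 5.96), at levels of 2.34 and 0.704 CPM, where the median ratio of all genes was 1.82 and the E16 HS cells came from another cluster than the E19 cells. Without the *PTPRO* cluster, nephric-like *IGF2R* passed 2-fold as well, with a stage ratio of 0.482.

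*IGFBP2* was detected in more cells than any of the other 7 genes. It had 636 CPM in E16 HS (631 to 640), 940 CPM in E19 HS (934 to 947) and 568 CPM in E19 HSTS (563 to 573), in 73.2%, 84.5% and 69.1% of cells (58.4%, 75.6% and 58.9% after thinning). Neural-like cells led with 1710, 1860 and 1534 CPM, in 98.98%, 99.2% and 97.5% of cells, and their ratio to the other cells was 3.00, 2.64 and 3.62. Nephric-like cells had 926, 1242 and 1111 CPM. Caudal progenitor-like cells, which resemble the tail bud and express *CDX2* and *TBX6*, were as rich as neural cells, with 1549 CPM in E16 HS (1105 cells), 2320 CPM in E19 HS (113 cells) and 1438 CPM in E19 HSTS (36 cells). So was an unnamed epithelial cluster led by *CXCL14*, *DLX5* and *CLDN7*, with 1902, 2406 and 2023 CPM in 578, 532 and 398 cells.

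Mesenchyme-like cells had 284 CPM of *IGFBP2* in E16 HS and 780 CPM in E19 HS, which is 2.75-fold lower at day 16 (2.67 to 2.83), and 640 CPM in E19 HSTS. This comparison involved different subsets: the *REG4* and *COL1A1* cluster gave 1558 of the mesenchyme-like cells in E16 HS, 67 in E19 HS and 41 in E19 HSTS, and its main subset in E16 HS had 105 CPM. Within the mesenchyme cluster led by *IGFBP3*, *MEOX2* and *POSTN* alone (below, the *POSTN* and *MEOX2* cluster), the stage ratio was 0.899. Erythroid-like cells had 151, 106 and 45.4 CPM, and in them *IGFBP2* was 2.33-fold lower in E19 HSTS than in E19 HS (2.20 to 2.47). The share of erythroid-like cells with a UMI was 53.5%, 53.9% and 20.9%, and 25.5%, 20% and 7.16% after thinning. Without the finer cluster led by *ANK1* the levels were 106, 63.4 and 14.0 CPM, and the breed ratio was 0.220. Leaving out the cells with the highest doublet scores gave a breed ratio of 0.229, but the doublet caller, which uses these scores, did not work for E19 HS. In E19 HSTS the endothelium-like cells were lower too, at 313 against 712 CPM, a 2.27-fold difference (2.05 to 2.52). In neural-like cells the breed ratio was 0.825, where the median of all genes was 0.23 on the log2 scale. Relative to that median *IGFBP2* was lower still, but short of 2-fold.

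*IGFBP3*, the main carrier of IGFs in adult blood, was low and patchy in these embryos, with 29.9 CPM in E16 HS (28.9 to 30.9), 48.3 CPM in E19 HS (46.8 to 49.7) and 27.6 CPM in E19 HSTS (26.5 to 28.6). Mesenchyme-like cells held 52.6%, 57.3% and 53.6% of its UMIs, at 59.1, 180 and 127 CPM, but only 20.1%, 19.2% and 17.8% of them had a UMI. The *POSTN* and *TCF21* subset (145, 327 and 160 CPM) and that led by *DCN* (150, 355 and 381 CPM) were high. The subset led by *MEOX2* was low (21.5, 6.45 and 6.73 CPM). *IGFBP3* was itself the first leading gene of the *POSTN* and *TCF21* subset, so its high level there is no separate finding. Endothelium-like cells had 50.6, 95.02 and 87.7 CPM and extraembryonic endoderm-like cells 87.3, 44.9 and 36.9 CPM. A cluster led by the bladder epithelium gene *UPK3A*, which is almost confined to E16 HS with 332 cells against 7 and 2, had 161 CPM. Nephric-like cells had next to none, with 3.37, 14.2 and 2.60 CPM.

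Between the stages, *IGFBP3* was 3.04-fold lower in E16 HS in mesenchyme-like cells (2.86 to 3.24), and in the *POSTN* and *MEOX2* cluster alone the ratio was 0.504. It was also past 2-fold lower in nephric-like (21 against 72 UMIs), neural-like (37 against 219) and erythroid-like cells (26 against 76). The neural-like ratio of 0.460 was 0.658 in cells without collagen UMIs, and the erythroid-like ratio of 0.315 was 0.601 with cells gated on their own markers. Of the 76 erythroid-like UMIs of E19 HS, 66 lay in the 115 cells led by *ANK1*. Without that cluster the levels were 0.722 CPM in E16 HS (18 UMIs) and 0.433 CPM in E19 HS (10 UMIs). These UMIs are below the minimum of 50 and the intervals overlapped, so no direction is shown. In E19 HSTS, nephric-like *IGFBP3* was 5.44-fold lower than in E19 HS (3.04 to 10.4), from 14 against 72 UMIs. Of the 72 UMIs, 34 lay in the 74 cells led by *SLC34A1*, where E19 HSTS had 1 UMI in 75 cells, and 21 in the *PTPRO* cluster.

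*IGFBP4* marked the endothelium-like cells. Over all cells it had 123, 129 and 97.4 CPM, and in endothelium-like cells 660 CPM in E16 HS (585 to 740), 581 CPM in E19 HS (549 to 614) and 528 CPM in E19 HSTS (492 to 565), or 5.45, 4.92 and 5.83 times the level of the other cells. It was found in 92.6%, 95.4% and 92.9% of endothelium-like cells and, after thinning, in 83.3%, 81.5% and 70.3%. Nephric-like cells had 234, 222 and 232 CPM and mesenchyme-like cells 132, 231 and 217 CPM, with overlapping intervals in both E19 libraries, and neural-like cells had 115, 109 and 113 CPM. No group passed 2-fold for *IGFBP4* in either comparison, and the lowest ratio was 0.569 in mesenchyme-like cells between the stages, which was 1.13 in the *POSTN* and *MEOX2* cluster alone. The erythroid-like stage ratio of 1.82 was near the median of all genes there (0.86 on the log2 scale), where 40.7% of all genes passed 2-fold. The *IGFBP4* ratio passed 2-fold at 3.05 without the finer cluster led by *ANK1*. It was 3.22 without the cells of highest doublet scores, with the limit given above for E19 HS.

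*IGFBP5*, which binds to extracellular matrix, was found in mesenchyme and was scarce in endothelium. Its levels over all cells were 178 CPM in E16 HS (175 to 180), 111 CPM in E19 HS (109 to 113) and 95.2 CPM in E19 HSTS (93.3 to 97.1). Mesenchyme-like cells had 344, 275 and 285 CPM, 2.92, 3.39 and 4.06 times the level of the other cells, and endothelium-like cells had 13.8, 16.1 and 17.4 CPM. In nephric-like cells it went from 336 to 181 and 121 CPM, and in the *PTPRO* cluster from 839 to 210 and 65.1 CPM. The nephric-like stage ratio of 1.85 (1.72 to 2.01) was 0.935 without that cluster, and 2.34 with cells thinned to 3000 UMIs. *COL1A2* differed there in the same order, at 534, 283 and 127 CPM, and its part in the result was not tested. In extraembryonic endoderm-like cells *IGFBP5* was 4.43 times as high in E16 HS as in E19 HS (3.17 to 6.23, 98 against 58 UMIs), and in caudal progenitor-like cells 3.34-fold lower (2.75 to 4.02, 574 against 140 UMIs), while the ratio over all kept cells was 1.61 (1.57 to 1.64). A small neural-like subset of the E19 libraries led by *HCRT* and *SPON1*, a floor plate gene, had 443 and 651 CPM, against 49.2 and 76.7 CPM in all neural-like cells.

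*IGFBP7* had the highest ratio of nephric-like to other cells among the 8 genes in each library. Nephric-like cells had 603 CPM in E16 HS (584 to 623), 1450 CPM in E19 HS (1417 to 1484) and 1279 CPM in E19 HSTS (1249 to 1310), which was 12.0, 22.4 and 28.1 times the level of the other cells, and they held 41.2%, 57.7% and 61.6% of its UMIs. It was found in 92.7%, 97.8% and 96.7% of them. Within the group its level was highest in the *PTPRO* cluster, with 1236, 2998 and 3634 CPM, and was 395, 1147 and 1050 CPM in the *CALB1* cluster and 1775 and 1518 CPM in the *SLC34A1* cluster of the E19 libraries. Mesenchyme-like cells had 95.9, 180 and 156 CPM, with 357 and 339 CPM in the *POSTN* and *TCF21* subset at day 19.

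In nephric-like cells, *IGFBP7* was 2.40-fold lower in E16 HS than in E19 HS (2.31 to 2.50), and without the *PTPRO* cluster it stood at 390 and 1269 CPM, a ratio of 0.307. Over all kept cells it was 80.6 CPM in E16 HS, 144 CPM in E19 HS and 112 CPM in E19 HSTS, 1.79-fold lower in E16 HS (1.74 to 1.83), a difference that passed 2-fold once the libraries were scaled by TMM (ratio 0.485). It was also lower in E16 HS in endothelium-like cells (2.88-fold, 15 against 215 UMIs). Extraembryonic endoderm-like cells went the other way, with 116 against 32.6 CPM and a ratio of 3.55 (2.38 to 5.34, 61 against 45 UMIs).

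Over all kept cells, none of the 8 genes passed 2-fold between the stages, where 13.3% of all genes did, and none passed it between the breeds, where 3.81% did. At 1.5-fold, 3 of 8 passed for stage (33.4% of all genes) and 2 of 8 for breed (11.8%). The median ratio of the 8 genes was 1.05 for stage, beside 1.17 for all genes tested, and 0.819 for breed, beside 0.963. *IGFBP2*, *IGFBP3* and *IGFBP7* were lower in E16 HS than in E19 HS, with ratios of 0.676, 0.619 and 0.560, and *IGF2* and *IGFBP5* higher, with 1.42 and 1.61. For breed, the lowest ratios were 0.571 for *IGFBP3* (0.544 to 0.599) and 0.604 for *IGFBP2* (0.598 to 0.611), and leaving out the erythroid-like cells moved them to 0.729 and 0.787. The same step turned *IGF2R* from 0.891 to 1.15, *IGFBP5* from 0.859 to 1.10 and *IGFBP7* from 0.779 to 1.01. Weighting the cell groups equally turned the stage ratios of *IGF1R* from 1.15 to 0.981 and of *IGF2R* from 1.20 to 0.709, and thinning turned that of *IGF2R* to 0.988.

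Within the cell groups, the members passed 2-fold more often. Between the stages, mesenchyme-like and nephric-like cells had 2 of 8 members past it each, beside 19.9% and 10.7% of all genes. Extraembryonic endoderm-like cells had 4 of 7 (16.4% of all genes), endothelium-like cells 2 of 6 (9.98%), neural-like cells 1 of 8 (6.66%) and erythroid-like cells 2 of 8 (40.7%). These 13 calls include the 4 of a group with 58 cells in E16 HS and the 2 of a group with 54. The caudal progenitor-like call of *IGFBP5* stands beside 13.5% of all genes. Between the breeds, mesenchyme-like cells had none, beside 3.17% of all genes, and nephric-like, extraembryonic endoderm-like, endothelium-like, neural-like and erythroid-like cells had 1 each, beside 2.98%, 5.28%, 2.54%, 2.96% and 5.36%. A further one was seen in cardiomyocyte-like cells, where *IGFBP5* was 2.39 times as high in E19 HSTS (1.77 to 3.25) and 3.43% of all genes passed.

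**Figure D4:**
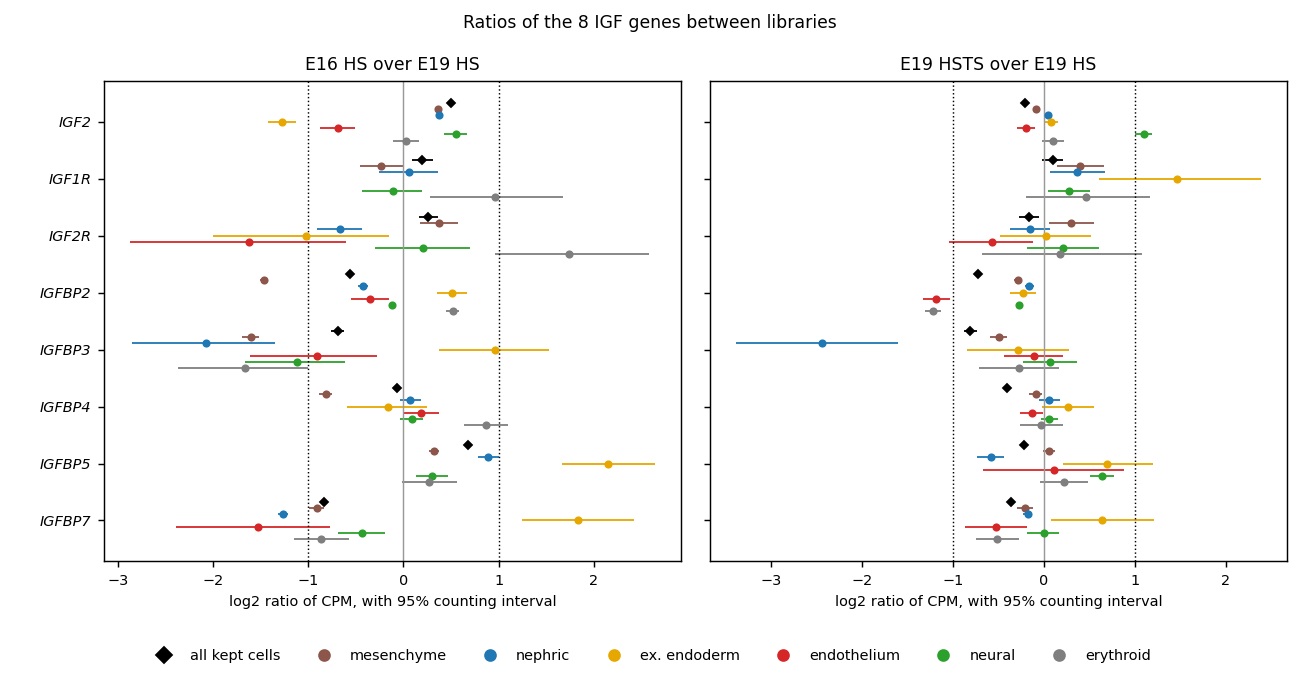
Ratios of the 8 IGF genes on a log2 axis, E16 HS over E19 HS on the left and E19 HSTS over E19 HS on the right, for all kept cells (black diamonds) and 6 cell groups (colored points), with 95% counting intervals. Dotted lines mark 2-fold. Over all kept cells no gene lies past them, while *IGF2* in neural-like cells does between the breeds, at a ratio of 2.14.

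Of 48 pairs of a gene and a group, 9 were past 2-fold higher than the other cells in all 3 libraries and 14 past 2-fold lower. *IGF2*, *IGFBP3* and *IGFBP5* were higher in mesenchyme-like cells, where 3.26% of all genes were. *IGF2*, *IGF1R*, *IGF2R* and *IGFBP7* were higher in nephric-like cells (3.85% of all genes), *IGFBP4* in endothelium-like cells (6.44%) and *IGFBP2* in neural-like cells (4.3%), and none was in extraembryonic endoderm-like (3.04%) or erythroid-like cells (1.82%). None was lower in mesenchyme-like (3.36%) or extraembryonic endoderm-like cells (9.34%). Lower were *IGFBP3* in nephric-like cells (3.72%), *IGF1R* and *IGFBP5* in endothelium-like cells (7.18%), and *IGF2*, *IGFBP3* and *IGFBP7* in neural-like cells (5.96%). In E16 HS the *IGF1R* call rests on 0 UMIs in 54 endothelium-like cells, and the upper limit given above is not 2-fold lower. All 8 were lower in erythroid-like cells, as were 51.8% of all genes.

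Of the UMIs of the 5 binding protein genes, *IGFBP2* gave 89.2%, 90.05% and 86.6% in neural-like cells. It also gave most of them in erythroid-like cells (82.7%, 78.1% and 62.8%) and extraembryonic endoderm-like cells (64.4%, 71.6% and 63.2%), at nearly the same share in E19 HSTS. In nephric-like cells *IGFBP2* gave 44.0%, 39.9% and 40.5% and *IGFBP7* 28.7%, 46.6% and 46.6%. In endothelium-like cells *IGFBP4* gave 50.1%, 38.6% and 52.0% and *IGFBP2* 42.4%, 47.4% and 30.9%, so that *IGFBP2* was ahead in E19 HS. Mesenchyme-like cells had *IGFBP5* at 37.6%, 16.7% and 20.02% and *IGFBP2* at 31.0%, 47.4% and 44.9%. The 5 genes together reached 2103, 3110 and 2745 CPM in nephric-like cells and 183, 136 and 72.3 CPM in erythroid-like cells. Protein was not measured.

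**Figure D5:**
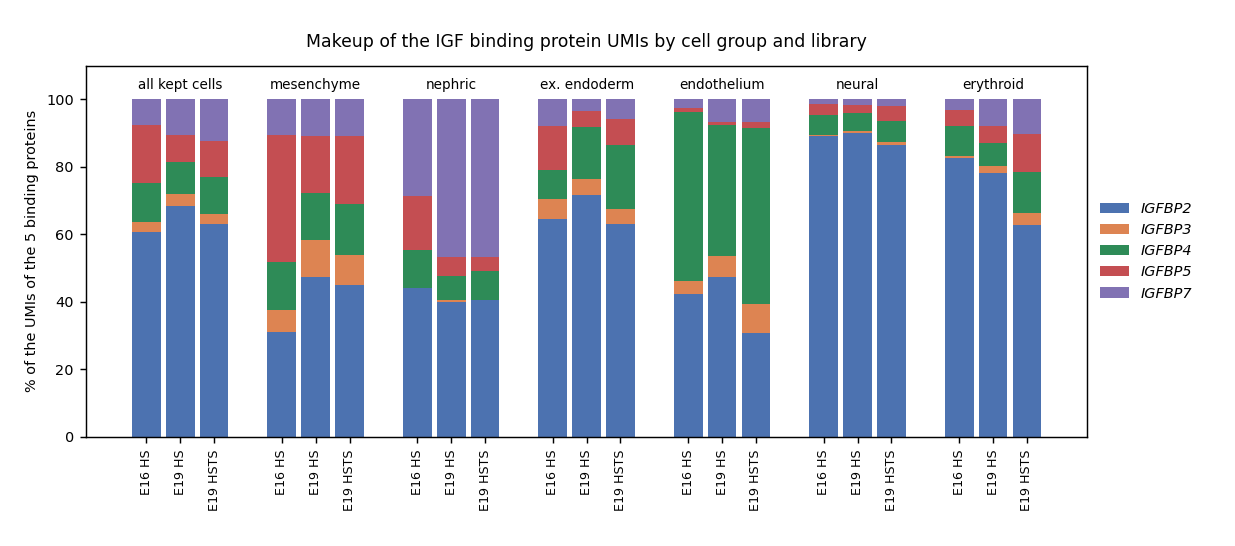
Share of the UMIs of 5 binding protein genes that each contributes, in percent, by cell group and library. *IGFBP2* takes most of the bar in neural-like cells, *IGFBP4* 38.6% to 52.0% in endothelium-like cells and *IGFBP7* 28.7% to 46.6% in nephric-like cells.

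Within mesenchyme-like cells, *IGFBP3* and *IGFBP7* were found in the same cells more often than their separate shares give. After thinning to 3000 UMIs, both were detected in 95 of 2650 cells of E16 HS, 105 of 2085 of E19 HS and 77 of 1520 of E19 HSTS, where the product of the shares gives 60.5, 72.4 and 42.8 cells, and this is given as a description without a test. Both genes were high in the subsets led by *POSTN* and *DCN* and low in that led by *MEOX2*, and the part of these subsets in the excess was not tested.

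Of 47 further genes of the IGF system and its imprinted neighbors on the list, 44 were in the tables. Between the stages, 42 had enough UMIs over all kept cells, 3 passed 2-fold higher in E16 HS (6.96% of all genes) and 7 lower (6.38%), and the median ratio was 0.953. The other ligand gene, *IGF1*, had 19 UMIs in E16 HS and 84 in E19 HS, 5.64-fold lower at day 16. Lower in E16 HS were also the binding protein genes *IGFBP1* (6 against 108 UMIs) and *IGFBPL1* (ratio 0.489), the receptor substrate genes *IRS2* (0.449) and *IRS4* (0.384), *PLAG1*, a transcription factor that acts on *IGF2* (0.455), and the imprinted gene *DLK1* (58.1 against 136 CPM, 0.427). Higher were the protease gene *HTRA3* (3.37), *STC2*, whose product inhibits the protease that cleaves IGFBP4 (2.19), and the imprinted gene *MEST* (86.5 against 41.9 CPM, 2.07). Between the breeds, 41 were tested, 0 were higher (1.53% of all genes) and 2 were lower in E19 HSTS (2.28%), *IGFBP1* (24 against 108 UMIs) and *STC1* (12 against 49 UMIs), with a median ratio of 0.909.

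Between cell groups, 31 of these genes were tested in all 3 libraries, and the shares of all genes are those given above for the members. In nephric-like cells 2 were past 2-fold higher and 1, *IGFBP6*, lower. There the imprinted growth inhibitor gene *CDKN1C* had 2730, 2007 and 1455 CPM and *DLK1* 589, 1030 and 861 CPM. Mesenchyme-like cells had 3 higher and 0 lower, and the higher ones were *MEST*, *LRP1*, which encodes an endocytic receptor, and the protease gene *HTRA1*. Endothelium-like cells had 5 higher, *IGFBP6* (45.96, 196 and 187 CPM), *ADAM12*, *SHC1*, *GRB10* and *FOXO1*, and 3 lower, *LRP1*, *IGFBPL1* and *IRS4*. Neural-like cells had 3 higher, *IGFBPL1*, *IRS4* and *PLAGL1*, and 3 lower, *ADAM12*, *HTRA1* and *FOXO1*. Erythroid-like cells had 0 higher and 19 lower. *IGFBP1* was found almost solely in extraembryonic endoderm-like cells, with 6 of 6, 106 of 108 and 24 of 24 UMIs, and 2 genes were higher there, *PEG10* and *FOXO1*, and 5 lower, *IGFBPL1*, *HTRA1*, *IRS4*, *PLAGL1* and *DLK1*. Within mesenchyme-like cells, 5 of 30 tested were past 2-fold higher in E16 HS (12.6% of all genes), among them *MEST* (2.08), *M6PR* (2.12) and *GRB10* (2.10), and 6 lower (7.26%), among them *DLK1* (0.153) and *HMGA2* (0.379), where the 2 stages held different mesenchyme subsets. In nephric-like cells 2 of 24 were higher (4.77%), *MEST* (2.23) and *INS* (2.79, 65 against 19 UMIs), and *PIK3R1* was lower (ratio 0.380, 5.9% of all genes). *DLK1* in mesenchyme-like cells was 2.49-fold lower in E19 HSTS, at 42.9 against 107 CPM.

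The genes whose levels followed a member most closely were sought over 30 values, from 11 cell groups in 3 libraries, among 7485 genes. The points share libraries and cell makeup, so the correlations describe these data only. *IGF2R* was the gene closest to *IGF2* (Pearson's r = 0.907 on log2(CPM + 1)), followed by *FNDC3B* (0.904) and *BAMBI* (0.892). The closest to *IGF1R* was *UBE4B* (0.931), to *IGF2R* *KIAA1217* (0.937), to *IGFBP2* *PCSK1N* (0.898), to *IGFBP3* *PLK2* (0.834), to *IGFBP4* *SSBP4* (0.928), to *IGFBP5* *CDK14* (0.847) and to *IGFBP7* *TCF21* (0.857).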

How the data were processed

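The deposited files hold raw UMI counts per gene and cell, which the authors made with Cell Ranger 6.1.2 and a genome they name Ovis_aries_genome_v1.0, and which carry no normalization. The submitters' processing notes also list R 4.1.2 and Seurat 4.1.1. A cell entered when its UMIs numbered 1000 to 30000, its detected genes 200 to 6000, and its mitochondrial share was 10% or less, which left 31576 cells, from 12645, 12064 and 11114 deposited per library. Clusters were made with Seurat 5.3.0 in R 4.3.3 from 2000 variable genes, without the 8 members and 44 pathway genes, with 25 principal components at resolutions 0.25 and 1.0. They were named from 18 marker lists. After the clusters were seen, names were withheld from clusters with shallow cells and weak markers, and a gut endoderm name was made to require *FOXA1*, *FOXA2*, *SOX17* or *GATA6* in at least 10% of cells. Doublet scores (scanpy 1.11.5) called 2.17%, 0.0847% and 2.31% of cells, so that the caller did not work for E19 HS, and none were removed.

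UMI counts were summed per library and cell group (Python 3.11.15, numpy 2.4.6, scipy 1.17.1, pandas 2.3.3), and the ratio step was tested on simulated data. The members, lists and comparisons were chosen with earlier results of these data known. All 8 members are named, list genes are named where they passed 2-fold, and the 3 most correlated genes were sought per member. Alternatives were another cell filter, doublet scores, gating, thinning, TMM scaling (edgeR 4.0.16), cell weighting, resolution and fold. Leaving out the *SLPI*-led (*PTPRO*) cluster, the *KLF1*-expressing (*ANK1*-led) cluster, cells with collagen UMIs or the *REG4* cluster was added after the data were seen.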

Additional observations from a re-analysis of the deposited data

Results flagged for a closer look

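For 3 genes, cell groups differed in direction between E16 HS and E19 HS, each past 2-fold. *IGF2R* had a ratio of 3.33 in erythroid-like cells, and 0.493 in extraembryonic endoderm-like and 0.324 in endothelium-like cells. *IGFBP5* had a ratio of 4.43 in extraembryonic endoderm-like and 0.300 in caudal progenitor-like cells. *IGFBP7* had a ratio of 3.55 in extraembryonic endoderm-like cells, and 0.416 in nephric-like and 0.348 in endothelium-like cells. With 1 library per stage, the difference was not tested for any of them.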

How the results depend on the processing

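The number of members past 2-fold over all kept cells between the stages was 0, and became 2 with the mean of per-cell CPM (*IGFBP3* and *IGFBP7*), 1 with thinning to 3000 UMIs and 1 with TMM scaling (*IGFBP7* in both), and 3 at 1.5-fold. Between the breeds it was 0, and 2 at 1.5-fold. Within cell groups, the 13 stage calls became 7 with cells gated on their own markers, 6 with thinning and 23 at 1.5-fold, and the 5 breed calls became 9 at 1.5-fold. The other 28 settings of these counts stayed within 1.5 times. The cause was not tested. No paired analysis was possible because each condition had 1 library. Depth limits the receptors most, and a group with 54 or 58 cells rests on few UMIs.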
